A study of Rattus with 9 samples.

Results

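The Mfap5 and Cthrc1 fibroblasts of the rat bile duct are cells that hold fibroblast collagen and proteoglycan RNA and more RNA of Mfap5, Htra3 and Cthrc1 than of 2 other gene pairs. They were chosen by their own counts of unique molecular identifiers (UMIs), each of which tags 1 captured RNA molecule. A barcode entered with 401 to 5999 detected genes, under 25% mitochondrial and under 3% hemoglobin UMIs. It had at least 3 of Col1a1, Col3a1, Dcn, Lum and Dpt with at least 3 UMIs of Col3a1, and no UMI of Ptprc, Epcam, Cdh5 or Myh11. The summed UMIs of Mfap5, Htra3 and Cthrc1 had to be at least 2 and larger than those of Ogn and Gpc3 and those of Ptx3 and Srpx. This gave 4819 cells, which were 28.3% of 17053 fibroblasts and 3.205% of 150379 cells. The Ogn and Gpc3 fibroblasts, the Ptx3 and Srpx fibroblasts and the other fibroblasts numbered 6541, 4640 and 1053.

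Single cells of rat bile duct were measured by 10x Genomics scRNA-seq in 20 libraries, which make up 9 samples. Sham 1, sham 2 and sham 3 came from sham rats, which the labels describe no further. The ctrl arm was sampled at days 1, 3 and 7 after liver transplantation (LT), and the treat arm at the same days after LT together with ligation of the splenic and gastroduodenal arteries, which raises arterial flow to the graft. The graft carried an ischemic injury in the model. Strain, sex and age are not given separately for the rats of this series, and a paper that used it gives them for its own rats. Each day of each arm is 1 sample of 2 or 3 libraries, and nothing in the labels ties these libraries to single rats. Their counts were summed, so each p value compares samples, and the spread between them may be technical. In the comparisons with sham, the days of an arm served as its samples, so that spread also holds changes between days.

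Fibroblasts of the bile duct wall build the collagen, elastic and proteoglycan matrix around the epithelium and the peribiliary glands. Mfap5 codes for a glycoprotein of the fibrillin microfibrils, the scaffold on which elastic fibres form, and it is known in fibroblasts of the adventitia, the outer sheath of ducts and vessels. Cthrc1 codes for a secreted protein known from fibroblasts that lay down collagen after injury. Htra3 is a secreted serine protease of the extracellular matrix. Adventitial fibroblasts, often marked by Pi16 and Dpp4, are regarded as a reserve from which activated, matrix-producing and contractile fibroblasts arise in several organs.

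The 9 matrices held 21270647 to 290590249 UMIs. The class had 12, 1199 and 891 cells in the sham samples, 41, 304 and 836 in ctrl and 335, 527 and 674 in treat at days 1, 3 and 7. Its cells held a median of 5740.5, 11747 and 8612 UMIs in sham, 18423, 16803 and 9506 in ctrl and 20312, 9512 and 9406 in treat, so that day 1 was the deepest in both arms. Sham 1, with 12 cells and 90059 UMIs, fell under the minimum of 20 cells set for gene fits and was left out of them. At ctrl day 3, 277 of the 304 cells came from 1 library, and the hemoglobin limit removed 6548 barcodes of that sample. Libraries of the same sample shared at most 0.395% of the barcodes of the smaller one, and libraries of different samples were not compared. At least 3 UMIs of 58 genes that fibroblasts should lack were found in 60.8% of the cells, with a range of 52.2% to 88.5% by sample. RNA of empty barcodes was estimated at 0% to 4.64% of the UMIs of these cells by library. No doublet caller was run.

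The genes of the rule describe the class and were not tested. Mfap5 was detected in 73.2% to 99.6% of its cells by sample, Htra3 in 79.1% to 91.8% and Cthrc1 in 33.3% to 94.1%, and Col1a1 and Col3a1 in at least 97.6%. Mfap5 had 1803 and 1974 CPM in sham 2 and sham 3, 936, 1415 and 1843 CPM in ctrl and 1644, 1741 and 2746 CPM in treat at days 1, 3 and 7, where CPM, the usual expression unit, relates the UMIs of a gene to all UMIs of the summed cells of a sample after scaling by edgeR's TMM method. Htra3 had 389 and 482 CPM in sham 2 and sham 3, 232, 516 and 739 CPM in ctrl and 296, 654 and 1087 CPM in treat at days 1, 3 and 7. Cthrc1 had 496 and 459 CPM in sham 2 and sham 3, 441, 883 and 1534 CPM in ctrl and 273, 839.9 and 1614 CPM in treat at days 1, 3 and 7, and its values at days 3 and 7 lay above those of both sham samples and of day 1 in both arms. The gate gene Lum, a small leucine-rich proteoglycan, had 3158 and 3403 CPM in sham 2 and sham 3, 1114, 2439.6 and 2686 CPM in ctrl and 796, 2964 and 3036 CPM in treat at days 1, 3 and 7, with day 1 below all other samples. The median cell held 29 UMIs of Mfap5, Htra3 and Cthrc1 together, 7 of Ogn and Gpc3 and 6 of Ptx3 and Srpx. At the edge of the rule, 253 cells were ahead of the larger other pair by 1 UMI and 74 had only 2 UMIs of the 3 genes. Just outside it, 254 fibroblasts with at least 2 UMIs were tied with the larger other pair, 237 were 1 UMI behind it, and 57 had 1 UMI and none of the other pairs.

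The first comparison asks how much of the fibroblast population fell into this class in each group. In sham, 15.4, 37.5 and 18.4% of the fibroblasts of the 3 samples belonged to it. In ctrl the share was 13.6, 74.7 and 79.5% at days 1, 3 and 7, and in treat 6.28, 54.4 and 78.1%. The class was thus the largest of the 4 at days 3 and 7 in both arms, but at ctrl day 3 this rests on the hemoglobin limit. Of the 304 cells of the class there, 277 came from 1 of 3 libraries. Without the limit, the class made up 38.0% of 1260 fibroblasts at ctrl day 3, near the 37.4% of sham 2, and fibroblasts in none of the 3 named classes 54.5%. The Ogn and Gpc3 fibroblasts were the largest in all 3 sham samples and the Ptx3 and Srpx fibroblasts at day 1 in both arms. At treat day 1, the 3 libraries gave 19.9%, 7.37% and 1.52%. The transplanted samples overlapped with the sham samples because of day 1. Their mean was 51.1% ± 33.2 (SD, n = 6) against 23.7% ± 11.98 (SD, n = 3), a difference of 27.4 percentage points (p = 0.238 in a two-sided exact permutation test, where the smallest possible p is 0.0238). With all fibroblasts that held at least 3 UMIs of genes that fibroblasts should lack left out, an alternative chosen after the data were seen, the class made up 22.7, 36.5 and 21.5% of the remaining fibroblasts in sham, 15.4, 67.3 and 84.5% in ctrl and 8.12, 55.98 and 82.5% in treat, and the difference was 25.4 percentage points. Without the day 1 samples, an alternative chosen after the data were seen, the 4 remaining transplanted samples all lay above the 3 sham samples (71.7% against 23.7%, two-sided exact permutation test, p = 0.0571, the smallest that 4 against 3 allow). With all cells thinned to 3000 UMIs, the shares were 13.8, 36.9 and 19.6% in sham, 10.3, 67.0 and 74.6% in ctrl and 7.21, 51.0 and 77.4% in treat.

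**Figure D1:**
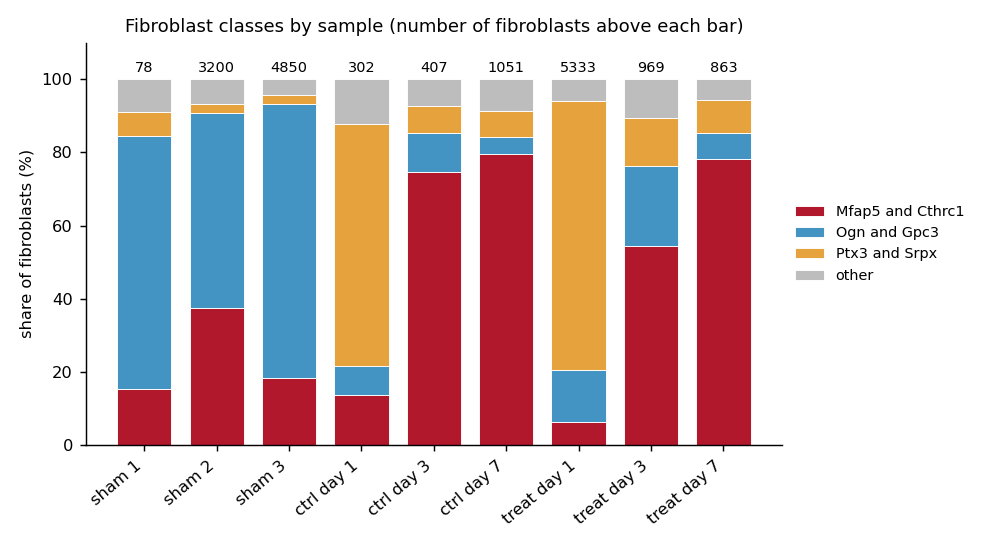
Stacked bars give the share of fibroblasts (%) in each of 4 classes for the 9 samples, with the number of fibroblasts above each bar. The Mfap5 and Cthrc1 class made up 54.4% to 79.5% of the fibroblasts at days 3 and 7 and 6.28% to 37.5% in the sham and day 1 samples, but 38.0% at ctrl day 3 without the hemoglobin limit that the bars use.

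The share of all cells gave another order of the groups. The class made up 0.489, 12.02 and 7.44% in sham, 0.297, 3.73 and 2.45% in ctrl and 1.38, 2.98 and 2.42% in treat. All fibroblasts together made up 3.18, 32.1 and 40.5% of the cells in sham, 2.19, 5.00 and 3.07% in ctrl and 21.9, 5.48 and 3.10% in treat. The mean share of the class among all cells was 2.21% ± 1.21 (SD, n = 6) in transplanted samples and 6.65% ± 5.81 (SD, n = 3) in sham, and the groups overlapped (difference -4.44 percentage points, p = 0.143 in a two-sided exact permutation test). The difference was -7.52 percentage points without sham 1 and -1.75 without sham 2. The share of all cells also counts how many immune cells were captured, so an absolute number of these fibroblasts per duct cannot be told from it.

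Within the class, the cells were grouped by which of the 3 genes had the most UMIs, as a description without a test, since the rule used these genes. Mfap5 led in 66.7, 85.7 and 83.2% of the cells of the sham samples, in 46.3, 59.9 and 44.4% in ctrl and in 78.8, 58.8 and 57.7% in treat at days 1, 3 and 7. Cthrc1 led in 0, 9.17 and 11.2% in sham, 31.7, 30.9 and 44.1% in ctrl and 9.85, 26.9 and 31.0% in treat. Treat day 1 lay within the range of sham 1 to sham 3 for Cthrc1, and the other 5 transplanted samples lay above it. Htra3 led in 33.3, 2.50, 2.24, 14.6, 6.58, 7.54, 9.85, 6.45 and 6.82% of the cells in the same order of samples, and its first value rests on 4 cells of 12.

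**Figure D2:**
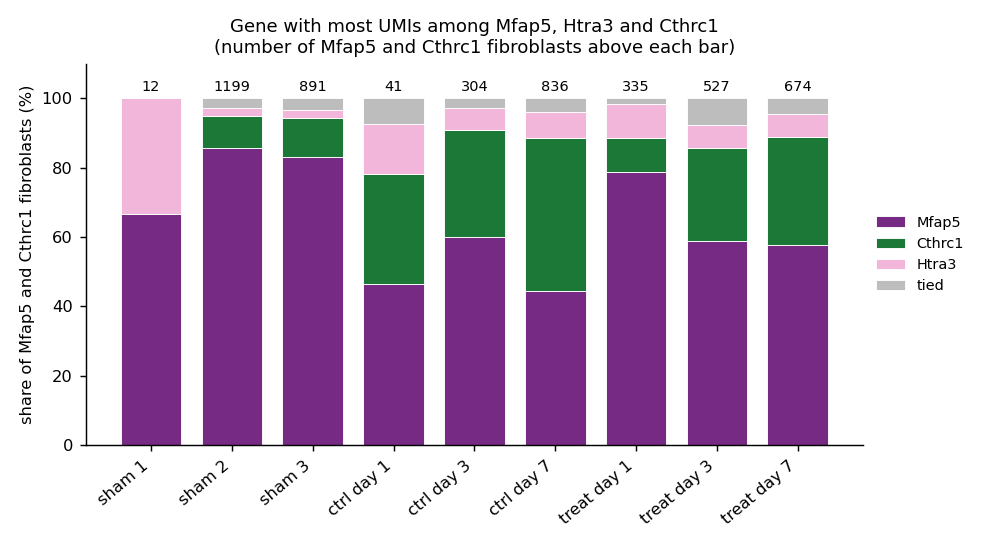
Stacked bars give the share (%) of the Mfap5 and Cthrc1 fibroblasts led by each of the 3 genes, or tied, in the 9 samples, with the number of cells above each bar. Cthrc1 led in 9.17% to 11.2% of the cells in sham 2 and sham 3 and in 26.9% to 44.1% at days 3 and 7.

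The cells led by Cthrc1 and by Mfap5 differed in other genes within each sample. The 7 samples with at least 20 cells of both kinds were sham 2, sham 3, ctrl days 3 and 7 and treat days 1, 3 and 7, and log2 ratios of CPM were taken within each, with 10 CPM added. Where Mfap5 led, 195 genes were higher in every one of the 7 samples, and 147 were higher where Cthrc1 led. Pi16, a peptidase inhibitor that marks adventitial fibroblasts, had 359, 575, 294, 494, 234, 726 and 917 CPM in these samples where Mfap5 led and 81.3, 146, 53.2, 191, 9.96, 112 and 433 CPM where Cthrc1 led. The complement brake Cd55 (mean log2 ratio -2.13), the phospholipase Pla2g2a (-1.91), the ferritin receptor Scara5 (-1.55), the guidance factor Sema3c (-1.52), the actin-severing protein Gsn (-1.57), the fibulin Efemp1 (-1.38) and the interferon-inducible chemokine Cxcl9 (-1.30) were also lower where Cthrc1 led. Thbs2, a matricellular thrombospondin, had 247, 241, 248, 713, 38.6, 249.6 and 652 CPM where Cthrc1 led and 103, 118, 236, 266, 24.4, 119 and 175 CPM where Mfap5 led. The matrix proteins Tgfbi (1.11), Spp1 (1.09) and Col12a1 (0.81) and the contractile genes Tpm1 (0.67), Myl9 (0.66) and Tpm2 (0.58) were higher there too.

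By list, 9 of 13 genes of universal and adventitial fibroblasts were lower in every sample where Cthrc1 led and none was higher (median log2 ratio -0.89). Of the list of activated fibroblasts and myofibroblasts, 9 of 20 genes were higher in every sample and none was lower (0.32). Of the inflammatory cytokines and chemokines, 10 of 20 were lower in every sample (-0.57), as were 7 of 15 microfibril and elastic fibre genes (-0.41) and 6 of 8 proteoglycan and hyaluronan genes (-0.58), while 4 of 10 collagens were higher (0.25). Over all 2466 genes with at least 50 CPM, which here include the genes without a usual symbol left out of the counts of 147 and 195, 159 were higher and 199 lower in every sample, and the median was 0.03. A contrast between Mfap5 and Cthrc1 is built into this grouping, so these counts describe the 2 kinds of cell and are no test.

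Compared with the other fibroblast classes of the same sample, the Mfap5 and Cthrc1 fibroblasts had more RNA of Fbln2 and Il33 or of Trh and Pi16, depending on the class. The classes were set by counts in the same cells, so the values are a description, taken as mean log2 ratios over the 8 samples with at least 20 cells of both classes. Against the Ogn and Gpc3 fibroblasts, 122 genes were higher and 178 lower in all 8. With genes without a usual symbol included, these were 127 and 185 of 2569 genes with at least 50 CPM in either class. The higher ones included the elastic fibre protein Fbln2 (2.76), the alarmin Il33 (2.01), Postn (1.99), the hyaluronan-binding Tnfaip6 (1.80) and the hyaluronan synthase Has2 (1.44). The lower ones included the methyltransferase Inmt (-2.55), the apolipoprotein Apoe (-2.30) and Wnt5a (-1.52). Against the Ptx3 and Srpx fibroblasts, 101 genes were higher and 46 lower, or 105 and 47 of 2466 counted that way. There the higher ones included the hormone precursor Trh (2.38), Pi16 (2.30), Fbln2 (1.49), Sema3c (1.17) and the fibrillin Fbn1 (1.07). The lower ones included the lipase Lpl (-1.27), the metallothioneins Mt1 (-1.04) and Mt2A (-1.02), the mitochondrial superoxide dismutase Sod2 (-0.84) and the chemokine Cxcl1 (-0.72). Against the remaining fibroblasts, 179 genes were higher and 217 lower, or 182 and 223 of 2605 counted that way. The pericyte genes Rgs5 (-3.34) and Cox4i2 (-3.05) were among the lower ones.

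In the main fits, the most genes were called at day 7 against day 1. With no filter on low counts, days 3 and 7 against sham had more calls (2116 against 2031). The comparison of day 7 with day 1, within the transplanted rats, asks how the class changed over the first week. It used 2 samples a day, 1 of each arm, with the arm as a term. Of 10851 genes tested, edgeR's quasi-likelihood test called 793 higher (7.31%) and 645 lower (5.94%) at day 7. Matrix, adventitial, complement and interferon genes were among those that rose, and glycolytic and DNA replication genes were among those that fell. The median log2 fold change of all genes was 0.10. Day 1 of ctrl has 41 cells, and the counts of calls ranged from 348 to 3139 when 1 sample at a time was left out, so the genes described first are given with their values in all samples, and the fold changes of the others rest on the same few samples. Of 124 called genes of this comparison named in the text or by the rule, 42 stayed called in all 6 of these fits. Without ctrl day 7, treat day 1 or treat day 7, 56, 56 and 53 of them lost the call, and 19 did so without ctrl day 1.

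Genes of universal and adventitial fibroblasts were higher at day 7 than at day 1. Of 21 tested genes of the list, 12 rose and 1 fell (median log2 fold change 1.50). Pi16 had 44.6, 231 and 334 CPM in ctrl at days 1, 3 and 7, 228, 588 and 775 CPM in treat and 314 and 485 CPM in sham 2 and sham 3 (log2 fold change 2.25, SE 0.32, edgeR adjusted p = 0.0176). Day 1 of both arms lay below both sham samples, and day 7 lay within or above their range. Scara5 had 19.1, 64.4 and 127 CPM in ctrl, 25.4, 123 and 297 CPM in treat and 68.9 and 108 CPM in sham (log2 fold change 3.23, SE 0.29, edgeR adjusted p = 0.0113). The dipeptidyl peptidase Dpp4 had 1.27, 16.8 and 23.9 CPM in ctrl, 5.20, 21.1 and 57.6 CPM in treat and 17.3 and 19.5 CPM in sham (log2 fold change 3.39, SE 0.40, edgeR adjusted p = 0.0161). In both arms, each of these 3 genes was lowest at day 1 and highest at day 7. Clec3b, a plasminogen-binding lectin, had 204, 964 and 999.6 CPM in ctrl, 86.3, 989 and 857 CPM in treat and 368 and 714 CPM in sham (log2 fold change 2.78, SE 0.34, edgeR adjusted p = 0.0165), with days 3 and 7 above both sham samples. Sema3c (2.51), Ackr3 (1.32), Igfbp6 (2.01) and the stem cell antigen Cd34 (1.87) rose too (log2 fold changes in parentheses, edgeR adjusted p from 0.0176 to 0.0425). Gsn fell, from 1168 to 512 CPM in ctrl and from 2021 to 1316 CPM in treat, and is the member of the list that changed the other way (edgeR adjusted p = 0.0450). Sema3c, Ackr3, Cd34 and Gsn lost the call in some of the alternatives run, and Igfbp6 kept it in all. Pi16, Scara5, Dpp4 and Clec3b stayed called with each sample left out, but with each library as a sample Pi16 and Clec3b lost the call (edgeR adjusted p = 0.176 and 0.0851), and Pi16 did so without the arm as a term (0.188).

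**Figure D3:**
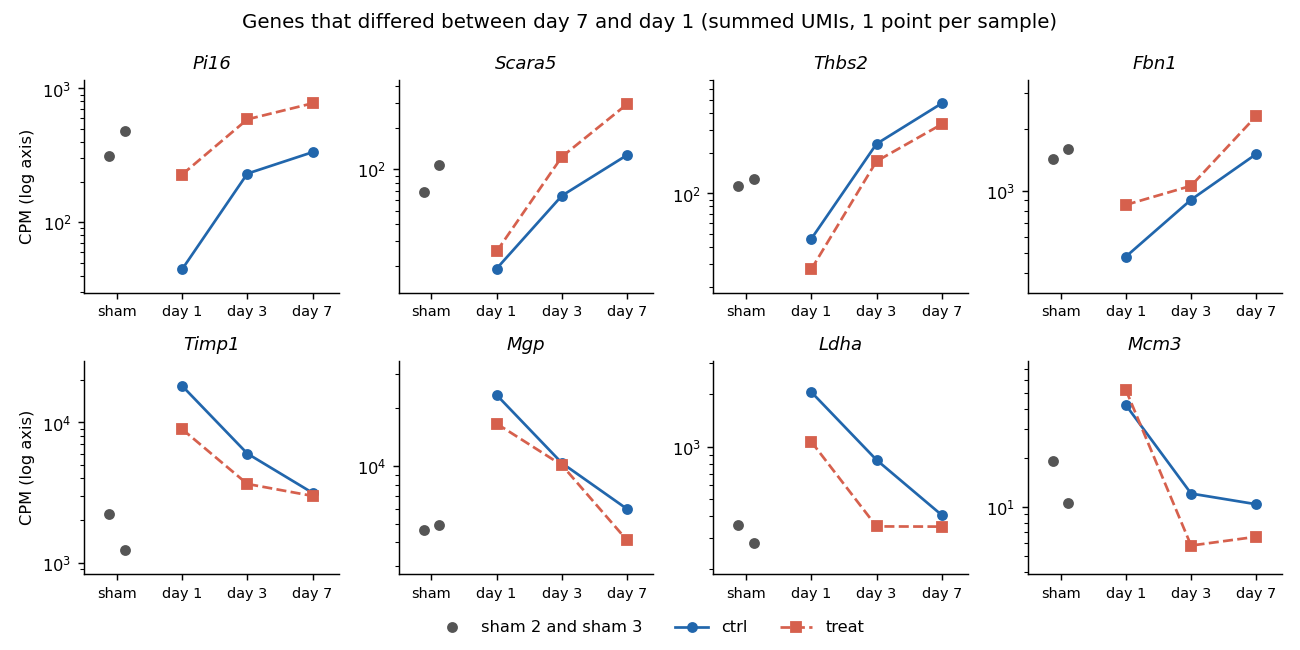
Each panel gives the level of 1 gene in the Mfap5 and Cthrc1 fibroblasts (TMM-scaled CPM, log axis), with 1 point per sample: sham 2 and sham 3 in grey, ctrl in blue and treat in red at days 1, 3 and 7. Pi16, Scara5, Thbs2 and Fbn1 were lower at day 1 than at day 7 in both arms, and Timp1, Mgp, Ldha and Mcm3 were higher at day 1.

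Some structural genes of the matrix rose too, and the others of their lists did not pass the test. Of the collagens outside the rule, 7 of 18 rose and none fell (median 1.03), of the microfibril and elastic fibre genes 6 of 24 rose and none fell (0.70), and of the genes of collagen processing and cross-linking 6 of 25 rose and none fell (0.10). Fbn1, the core protein of microfibrils, had 479, 906 and 1513 CPM in ctrl at days 1, 3 and 7, 855, 1058 and 2315 CPM in treat and 1424 and 1596 CPM in sham 2 and sham 3 (log2 fold change 1.54, SE 0.23, edgeR adjusted p = 0.0180). Its day 1 values were the lowest and treat day 7 the highest, while ctrl day 7 lay between the sham samples. Mfap2 (2.27) and Mfap4 (2.09), microfibril-associated proteins, and the elastin cross-linking enzyme Loxl1 (1.18) rose as well (edgeR adjusted p from 0.0176 to 0.0227). Among collagens, Col8a2, a short-chain network collagen, had 3.82, 10.7 and 44.9 CPM in ctrl, 6.16, 9.10 and 45.8 CPM in treat and 5.93 and 9.13 CPM in sham (log2 fold change 3.00, SE 0.30, edgeR adjusted p = 0.0113). Day 7 of both arms stood apart from all other samples for this gene. Col11a1, a fibril-nucleating collagen, had 0, 22.1 and 102 CPM in ctrl, 1.78, 13.7 and 20.1 CPM in treat and 4.45 and 2.05 CPM in sham (log2 fold change 4.50, SE 0.73, edgeR adjusted p = 0.0224), with ctrl day 7 far above the rest. Col15a1 (1.50), Col18a1 (1.70), Col6a2 (1.24), Col6a1 (1.07) and Col16a1 (0.99) rose with smaller changes (edgeR adjusted p from 0.0189 to 0.0344). The procollagen C-proteinase Bmp1 (1.01), its enhancer Pcolce (1.19), the N-proteinases Adamts2 (1.35) and Adamts14 (2.45) and the collagen chaperone Sparc (1.11) were the others of the processing list. Of the 7 collagens, Col8a2 alone kept its call in all 6 fits with a sample left out. Col11a1 lost it without treat day 1 (edgeR adjusted p = 0.103) and the other 5 in 2 fits each (highest edgeR adjusted p from 0.157 to 0.469). Fbn1 (edgeR adjusted p = 0.0605) and all 6 genes of the processing list lost it without treat day 7, while Mfap2 and Mfap4 kept it in all 6 fits. Of 12 proteoglycan and hyaluronan genes outside the rule, 2 rose and 1 fell, against 7.31% and 5.94% of all genes. Their median was 0.03, with 6 of 12 above 0. The proteoglycans Bgn (1.73) and Aspn (2.23) rose, and Prg4, a lubricant (-2.30), fell.

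Of the list of activated fibroblasts and myofibroblasts, 8 of 32 genes rose and none fell (median 0.73). Thbs2 had 45.8, 234 and 470.1 CPM in ctrl at days 1, 3 and 7, 27.2, 174 and 328 CPM in treat and 115 and 128 CPM in sham 2 and sham 3 (log2 fold change 3.49, SE 0.25, edgeR adjusted p = 0.00741). It was lowest at day 1 and highest at day 7 in both arms, with both day 7 samples above sham. Without TMM scaling, Thbs2 had the same order of days in the other named classes. It had 6.98, 117 and 273 CPM in ctrl and 8.57, 52.4 and 119 CPM in treat in the Ogn and Gpc3 fibroblasts. In the Ptx3 and Srpx fibroblasts it had 14.2, 155 and 333 CPM in ctrl and 31.8, 114 and 170 CPM in treat. Cilp, a matrix protein that binds TGF-beta, had 12.7, 53.7 and 97.6 CPM in ctrl, 8.62, 132 and 136 CPM in treat and 23.8 and 55.7 CPM in sham (log2 fold change 3.71, SE 0.44, edgeR adjusted p = 0.0161). Fap (1.92), a protease of activated fibroblasts, and the contractile genes Myl9 (2.15), Tpm1 (1.04) and Cnn1 (2.10) also rose (edgeR adjusted p from 0.0183 to 0.0401), and Ncam1 (2.01) was the remaining one beside Col11a1. Fap, Myl9, Tpm1, Cnn1 and Ncam1 each lost the call in some of the alternatives run, while Thbs2 and Cilp kept it in all. Acta2, the smooth muscle actin, had 50.9, 621 and 332 CPM in ctrl, 201, 412 and 284 CPM in treat and 101 and 160.3 CPM in sham, and its log2 fold change of 1.33 (SE 0.63) did not pass the test (edgeR adjusted p = 0.204). Postn had 387, 338 and 847 CPM in ctrl, 364, 396 and 425 CPM in treat and 722 and 551 CPM in sham and did not pass either (edgeR adjusted p = 0.160). In the cells of the class, the smooth muscle list of 7 genes, without the rule gene Myh11, summed to 158 and 227 CPM in sham 2 and sham 3, 129, 760.2 and 559 in ctrl and 230.3, 456 and 395 in treat. Acta2 and Cnn1 belong to both lists, so this sum is no separate measure of smooth muscle RNA. The part of smooth muscle RNA in the contractile genes was not tested.

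Among proteases and their inhibitors, Timp1, an inhibitor of matrix metalloproteinases, had 18250.5, 5999 and 3145 CPM in ctrl at days 1, 3 and 7, 8966, 3642 and 2992 CPM in treat and 2219 and 1238 CPM in sham 2 and sham 3 (log2 fold change -2.05, SE 0.26, edgeR adjusted p = 0.0165). In each arm, day 1 was the highest and day 7 the lowest, and all 6 lay above sham 2 and sham 3 and above the 2654 CPM of sham 1. The serpin Serpine2 fell as well (-1.28), whereas the membrane-bound metalloproteinase Mmp14 (1.03), Mmp23 (1.03), Adamts12 (1.50) and Timp3 (1.29), a matrix-bound inhibitor, rose, which made 4 higher and 2 lower of 24 tested, against 7.31% and 5.94% of all genes. Timp1 kept its call with any 1 sample left out, and the other 5 each lost it in 2 or 3 of 6 such fits. Mgp, the matrix Gla protein that inhibits calcification, fell from 23361 over 10345 to 5965 CPM in ctrl and from 16581 over 10087 to 4097 CPM in treat, with 4635 and 4937 CPM in sham (log2 fold change -1.99, SE 0.20, edgeR adjusted p = 0.0113). Sham 1, whose 12 cells were in no fit, had 17399.7 CPM of Mgp, between the 15652 CPM of treat day 1 and the 22745 CPM of ctrl day 1 without TMM scaling. Timp1 and Mgp were also highest at day 1 of each arm in the Ogn and Gpc3 and in the Ptx3 and Srpx fibroblasts. Among the other genes of the bile duct portal fibroblast and stellate list, the endothelin receptor Ednrb fell (-3.40) and Thy1 (1.89), Slit2 (1.29), Wt1 (1.99) and Ecm1 (1.39) rose, out of 18 tested. Wt1 is also a gene of mesothelium, whose 6 marker genes summed to 23.6, 83.2 and 372 CPM in ctrl and 116, 107 and 459 CPM in treat, highest at day 7 in both arms. The part of mesothelial RNA was not tested.

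Glycolytic and replication genes were highest at day 1. Of the hypoxia and glycolysis list, 11 of 28 genes fell and none rose (median -1.21). Ldha, lactate dehydrogenase A, had 2050.3, 839 and 406 CPM in ctrl at days 1, 3 and 7, 1067, 350.1 and 349 CPM in treat and 356 and 279.7 CPM in sham 2 and sham 3 (log2 fold change -1.94, SE 0.29, edgeR adjusted p = 0.0181). Both day 1 samples stood above all others, and day 7 was close to sham. The glucose transporter Slc2a1 (-2.42), the lactate exporter Slc16a3 (-2.74) and the enzymes Pkm (-2.27), Pgk1 (-1.88), Pfkl (-1.84), Eno1 (-1.52) and Aldoa (-1.20) fell with it (edgeR adjusted p from 0.0161 to 0.0289). Slc16a3 and these enzymes each lost the call in some of the alternatives run, while Ldha and Slc2a1 kept it in all. Without TMM scaling, Ldha was 2484, 295, 446, 431, 267 and 264 CPM in the Ogn and Gpc3 fibroblasts and 2191, 1389, 592, 872, 313 and 344 CPM in the Ptx3 and Srpx fibroblasts of the same 6 samples, where day 1 was also the highest in each arm. Of the cell cycle list, 9 of 28 genes fell and none rose (median -1.50). They belong to the onset of DNA replication. Mcm3, a subunit of the replicative helicase, had 42.0, 12.1 and 10.4 CPM in ctrl, 52.0, 5.79 and 6.56 CPM in treat and 19.1 and 10.6 CPM in sham (log2 fold change -2.59, SE 0.35, edgeR adjusted p = 0.0176). Mcm2, Mcm5, Mcm6 and Mcm7 of the same helicase, the nucleotide synthesis genes Rrm1 and Tyms, and Gins2 and Ccne1 were the others. Mrto4 (-2.52), Nhp2 (-2.38) and Pak1ip1 (-2.49), known from ribosome assembly, and the mitochondrial chaperone Hspd1 (-2.34) were among the 12 largest falls that the rule names. It takes called genes with at least 50 CPM at day 1 and the same direction in both arms.

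Il11 and Lif, cytokines of the IL-6 family, and the colony-stimulating factor Csf3 were also higher at day 1. Il11 had 61.1, 31.6 and 19.2 CPM in ctrl at days 1, 3 and 7, 60.2, 6.83 and 5.98 CPM in treat and 15.8 and 7.30 CPM in sham 2 and sham 3 (log2 fold change -2.64, SE 0.52, edgeR adjusted p = 0.0304). Csf3 had 0 UMIs in both sham samples and 24.2, 1.70 and 0.922 CPM in ctrl and 3.83, 0.414 and 0.146 CPM in treat (log2 fold change -4.60, SE 0.58, edgeR adjusted p = 0.0171). With Lif (-3.22) and the chemokine Cxcl14 (-3.62), 4 of 35 genes of the inflammatory list fell, and the adhesion molecule Vcam1 (1.53) rose (median 0.17). Il11, Csf3, Lif, Cxcl14 and Vcam1 each lost the call in some of the alternatives run. The endoplasmic reticulum genes Hyou1 (-1.28) and Sdf2l1 (-1.65) were among 4 of 27 genes of the unfolded protein response that fell, and none rose. Of the immediate early and dissociation genes, 2 of 30 rose, Egr1 and Dusp1, and none fell. This is near the 7.31% of all genes that were called higher. In signalling pathways, 6 of 34 TGF-beta genes rose and 3 fell, the ligands Tgfb2 (1.13) and Tgfb3 (1.58) and the receptor Tgfbr2 (0.98) among those that rose and the follistatin-like Fstl3 (-1.16), the co-receptor Eng (-0.86) and the target Id1 (-0.92) being those that fell. Each of these named TGF-beta genes lost the call in some of the alternatives run. Tgfb1 had 39.5, 42.0 and 36.6 CPM in ctrl, 64.7, 35.4 and 16.0 CPM in treat and 22.3 and 20.3 CPM in sham and did not pass the test (edgeR adjusted p = 0.113). Of the Wnt pathway, 7 of 24 genes rose and none fell. Sfrp4, a secreted Wnt inhibitor, had 2.55, 5.61 and 16.1 CPM in ctrl, 0.684, 7.45 and 29.3 CPM in treat and 12.05 and 23.05 CPM in sham (log2 fold change 4.76, SE 0.58, edgeR adjusted p = 0.0164), and Dkk3 (2.81), Rspo1 (2.55), Wnt4 (1.65) and Wnt5a (1.07) were among the others. The lymphangiogenic factors Vegfc (1.04) and Vegfd (1.40) were among 5 of 30 growth factor genes that rose.

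Of 21 complement genes, 12 rose and none fell (median 1.73). C6, a part of the membrane attack complex, had 11.5, 38.2 and 93.5 CPM in ctrl at days 1, 3 and 7, 2.46, 79.9 and 123 CPM in treat and 19.7 and 8.67 CPM in sham 2 and sham 3 (log2 fold change 4.76, SE 0.76, edgeR adjusted p = 0.0243), and it lost the call without ctrl day 7 or treat day 7 (highest edgeR adjusted p = 0.0744). C2 (4.46), C4a (3.70), C7 (1.52) and the inhibitor Cd55 (2.38) rose too. C1qa, one of the 12, is made by macrophages. In the same comparison, 7 of 11 monocyte and macrophage markers (median log2 fold change 1.80) and 3 of 6 T and NK cell markers (3.45) were called higher and none lower, and their part in the complement and interferon calls was not tested. Of 27 interferon response genes, 11 rose and none fell (median 3.195). Gbp5, a guanylate-binding protein, had 1.27, 5.78 and 33.8 CPM in ctrl, 1.78, 113 and 82.1 CPM in treat and 4.19 and 7.42 CPM in sham (log2 fold change 6.14, SE 1.18, edgeR adjusted p = 0.0366), with treat at day 3 already high. Gbp5, Igtp and Ifit2 lost the call without ctrl day 1 or treat day 1 (edgeR adjusted p up to 0.722, 0.728 and 0.379), and Bst2, Irf8 and Psmb8 did so without treat day 1. Irf8 and Psmb8 also lost it without ctrl day 7, and Psmb8 without treat day 7. Igtp (4.57), Bst2 (2.30), Irf8 (2.14), Ifit2 (2.88) and Psmb8 (1.44) rose as well. Cxcl9, an attractant of T cells, had 14.0, 41.3 and 711 CPM in ctrl, 4.65, 2049 and 1534 CPM in treat and 20.2 and 16.2 CPM in sham, and its log2 fold change of 7.66 (SE 2.29) did not pass the test (edgeR adjusted p = 0.108).

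Among called genes with at least 50 CPM at day 7 and the same direction in both arms, the 12 named for the largest rises included 5 of MHC class II antigen presentation. These were RT1-Ba, RT1-Bb, RT1-Da, RT1-Db1 and the invariant chain Cd74. Cd74 had 11.5, 25.5 and 535 CPM in ctrl at days 1, 3 and 7, 22.0, 247 and 766 CPM in treat and 15.7 and 57.3 CPM in sham 2 and sham 3 (log2 fold change 5.59, SE 0.86, edgeR adjusted p = 0.0264). Only ctrl day 7 and treat days 3 and 7 stood above the sham samples. These genes are abundant in antigen-presenting cells of the immune system. Together the 5 genes summed to 45.8 and 168 CPM in the cells of sham 2 and sham 3, 29.8, 72.4 and 1392 CPM in ctrl and 48.4, 655 and 2007 CPM in treat, and in empty barcodes to 3264 and 3477, 1127, 5738 and 14301 and 1674, 10194 and 19146 CPM. The 12 macrophage markers summed to 76.9, 272 and 467 CPM in the cells of ctrl and 149, 299 and 481 CPM in those of treat. In empty barcodes, the macrophage markers summed to 5707, 20088 and 14968 CPM in ctrl, where day 3 was the highest, and to 6955, 12921 and 14720.4 CPM in treat. As a share of the level in empty barcodes, the MHC class II genes stood at 2.64%, 1.26% and 9.73% in ctrl and 2.89%, 6.42% and 10.5% in treat, and the macrophage markers at 1.35%, 1.35% and 3.12% and 2.14%, 2.31% and 3.27%. After subtraction of the empty-barcode profile, Cd74 lost the call (edgeR adjusted p = 0.185), and it did so without ctrl day 1 (0.274) or without treat day 1 (0.504). The Ogn and Gpc3 fibroblasts had 45.3, 89.0 and 1741 CPM of the 5 genes in ctrl and 27.6, 279.7 and 1978 CPM in treat. Ighm, the heavy chain of IgM and a B cell gene, led the list by size with 0, 0.510 and 190.3 CPM in ctrl, 0.274, 1.24 and 20.1 CPM in treat and 0.0644 and 133 CPM in sham, and the 6 B and plasma cell markers summed to 0.336 and 8.29 CPM in sham 2 and sham 3, 0, 0.351 and 28.2 CPM in ctrl and 0, 1.72 and 12.6 CPM in treat.

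**Figure D4:**
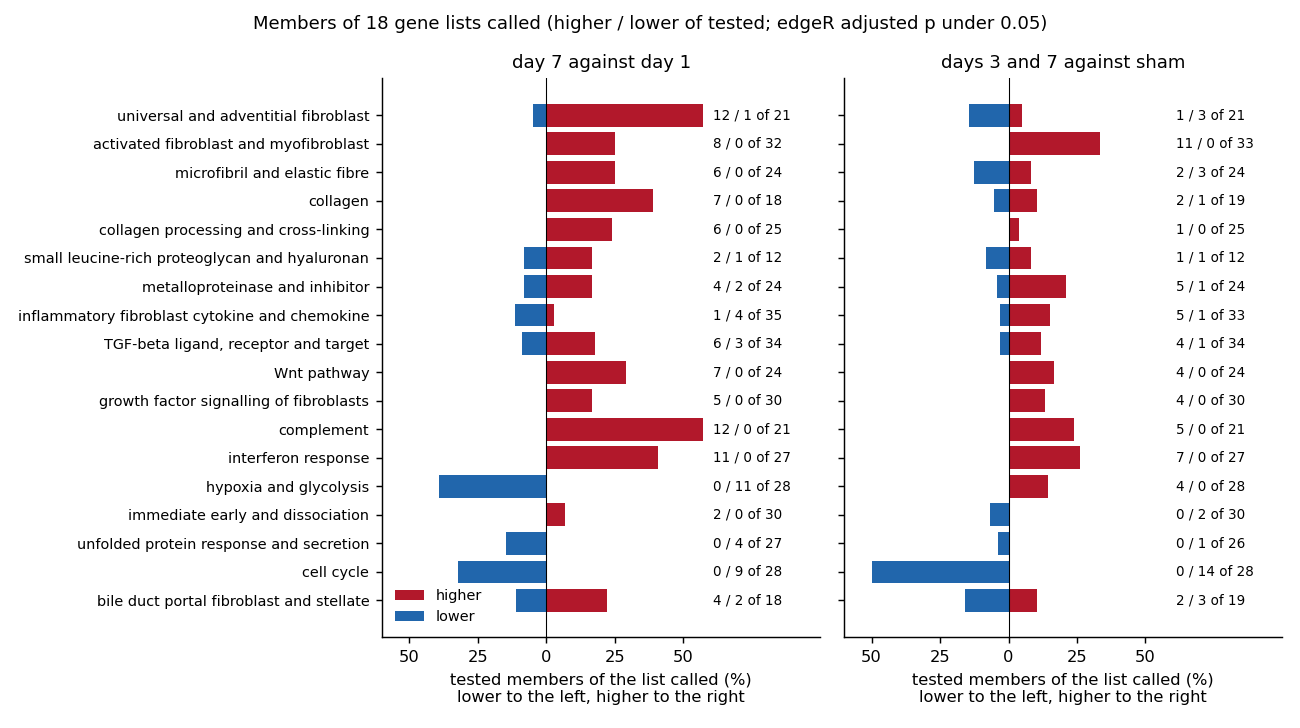
Bars give the share (%) of the tested genes of 18 lists that edgeR called higher (red) or lower (blue) in the Mfap5 and Cthrc1 fibroblasts, at day 7 against day 1 on the left and at days 3 and 7 against sham on the right, with the counts beside each bar. At day 7 against day 1, 12 of 21 adventitial and 12 of 21 complement genes were higher, and against sham 14 of 28 cell cycle genes were lower.

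The comparison of all transplanted with sham samples asks what set these fibroblasts apart from those of rats without a graft. With 6 samples against sham 2 and sham 3, edgeR called 7 of 11372 genes higher (0.0616%) and 17 lower (0.149%), against 1259 at an unadjusted p under 0.05. None of the 10 genes named by the rule stayed called with every sample left out in turn. Epas1, the oxygen-regulated factor HIF-2 alpha, had 12.9 and 10.7 CPM in sham 2 and sham 3, 42.0, 50.8 and 91.0 CPM in ctrl at days 1, 3 and 7 and 80.3, 72.0 and 76.1 CPM in treat (log2 fold change 2.54, SE 0.34, edgeR adjusted p = 0.0319). F2r, the thrombin receptor PAR1, had 26.1 and 23.5 CPM in sham 2 and sham 3, 54.8, 65.4 and 77.8 CPM in ctrl at days 1, 3 and 7 and 87.7, 107 and 115 CPM in treat (log2 fold change 1.74, SE 0.23, edgeR adjusted p = 0.0319). For both genes, all 6 transplanted samples lay above sham 2 and sham 3. The 12 cells of sham 1, which were in no fit, had 77.7 CPM of Epas1 on 7 UMIs and 55.5 CPM of F2r on 5 UMIs, both within the range of the transplanted samples. Tppp3, a tubulin-binding protein, had 610.0 and 447 CPM in sham 2 and sham 3, 16.6, 66.8 and 40.3 CPM in ctrl at days 1, 3 and 7 and 19.3, 44.5 and 58.3 CPM in treat (log2 fold change -3.66, SE 0.45, edgeR adjusted p = 0.0318). Sham 1 had 199.9 CPM of Tppp3 on 18 UMIs, above all transplanted samples. Without TMM scaling, Tppp3 was also lower after LT in the other named classes. The Ogn and Gpc3 fibroblasts had 244 and 134 CPM in sham 2 and sham 3 and 2.90 to 38.1 CPM in the transplanted samples. The Ptx3 and Srpx fibroblasts had 365 and 407 CPM in sham 2 and sham 3 and 3.12 to 25.7 CPM in the transplanted samples. Kazald1 and Sapcd1 were lower after LT in all 6 samples as well than in sham 2 and sham 3 (log2 fold changes -1.61 and -2.07, edgeR adjusted p = 0.0319 and 0.0350). Sham 1 had 55.5 CPM of Kazald1 on 5 UMIs and 66.6 CPM of Sapcd1 on 6 UMIs. Both values lay nearer to the transplanted samples than to sham 2 and sham 3.

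The other named genes of this comparison are best known from other cells. S100a9 and Lcn2, which neutrophils make in large amounts, rose after LT (edgeR adjusted p = 0.0319 and 0.0350). S100a9 had 0.644 and 0.114 CPM in sham 2 and sham 3, 40.8, 56.2 and 161 CPM in ctrl at days 1, 3 and 7 and 103, 56.9 and 174 CPM in treat. Lcn2 had 3.48 and 5.59 CPM in sham 2 and sham 3, 374, 237 and 434 CPM in ctrl at days 1, 3 and 7 and 181, 55.9 and 42.7 CPM in treat. Without TMM scaling, Lcn2 in the cells of the class was 365, 245, 447, 170.5, 51.5 and 42.8 CPM in the 6 transplanted samples and 964, 471, 175, 897, 680.3 and 319 CPM in their empty barcodes, higher in the cells at ctrl day 7 and lower in the others, while S100a9 was lower in the cells than in empty barcodes in all 6. The 10 neutrophil markers, which include S100a9, Lcn2 and G0s2, summed to 239 and 318 CPM in the cells of sham 2 and sham 3 and to 1513, 601, 971, 433, 602 and 624 CPM in the transplanted samples. In empty barcodes, they summed to 467 and 873 CPM and 19744, 21179.5, 14532, 17014, 3953 and 5876 CPM. In the cells of the class, G0s2 averaged 396 CPM where Cthrc1 led and 232 CPM where Mfap5 led. Prss1, Ctrb1 and Clps, digestive enzyme genes of the exocrine pancreas, were lower after LT, but Ctrb1 had a log2 fold change of 6.90, in the other direction, after subtraction of the empty-barcode profile. A list of 13 such genes, written after the calls were seen, summed to 282 and 654 CPM in the cells of sham 2 and sham 3 and 6.20, 32.4, 14.7, 14.98, 7.24 and 3.51 CPM after LT, and to 26782 and 38229 CPM and 498, 418, 416, 605, 85.7 and 139.9 CPM in empty barcodes. After subtraction of the empty-barcode profile, edgeR called 0 genes in this comparison, with 1163 at an unadjusted p under 0.05.

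Since day 1 differed from days 3 and 7, the 4 samples of days 3 and 7 were also compared with sham 2 and sham 3, a comparison added after the data were seen. The 2 comparisons share sham 2, sham 3 and the samples of days 3 and 7. Of 11311 genes, edgeR called 471 higher (4.16%) and 459 lower (4.06%), with a median log2 fold change of -0.0011 over all genes. With sham 2 or sham 3 left out, 157 and 204 genes were called. Of 86 called genes of this comparison named in the text or by the rule, 27 stayed called in all 6 fits with a sample left out, and 53 and 50 lost the call without sham 2 and without sham 3. Of the list of activated fibroblasts and myofibroblasts, 11 of 33 rose and none fell (median 0.84), and of the smooth muscle markers 1 of 6 was called higher. That 1 was Acta2, which belongs to both lists. Tagln, an actin-binding protein of contractile cells, had 143 and 191 CPM in sham 2 and sham 3, 107, 718 and 772 CPM in ctrl at days 1, 3 and 7 and 343, 619 and 535 CPM in treat (log2 fold change 1.96, SE 0.20, edgeR adjusted p = 0.00170). Days 3 and 7 lay above both sham samples in both arms, while ctrl day 1 lay below them. Acta2 had 101 and 160.3 CPM in sham 2 and sham 3, 50.9, 621 and 332 CPM in ctrl at days 1, 3 and 7 and 201, 412 and 284 CPM in treat (log2 fold change 1.63, SE 0.34, edgeR adjusted p = 0.0339), and it lost the call without sham 2, sham 3 or treat day 3 (highest edgeR adjusted p = 0.219). Tpm1 (1.41), Tpm2 (0.79), Myl9 (0.86), Cald1 (0.68), the transcription factor Runx1 (1.15) and the protease Adam12 (0.94) rose as well (edgeR adjusted p from 0.00624 to 0.0428). Each of these genes, and Tagln, lost the call in some of the alternatives run. In the Ogn and Gpc3 fibroblasts, Tagln, without TMM scaling, had 656 and 812 CPM in sham 2 and sham 3, 436, 422 and 636 CPM in ctrl and 630.4, 1276 and 510.0 CPM in treat, and the groups overlapped. In the Ptx3 and Srpx fibroblasts it had 286 and 219 CPM in sham 2 and sham 3, 66.5, 825 and 787 CPM in ctrl and 250.0, 282 and 435 CPM in treat, where ctrl days 3 and 7 and treat day 7 also lay above sham and treat day 3 lay between the sham samples. The difference between the classes was not tested. In the 12 cells of sham 1, whose values here and elsewhere have no TMM scaling, Tagln was at 0 of 90059 UMIs, which allows up to 33.3 CPM, and Acta2 had 255 CPM on 23 UMIs.

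**Figure D5:**
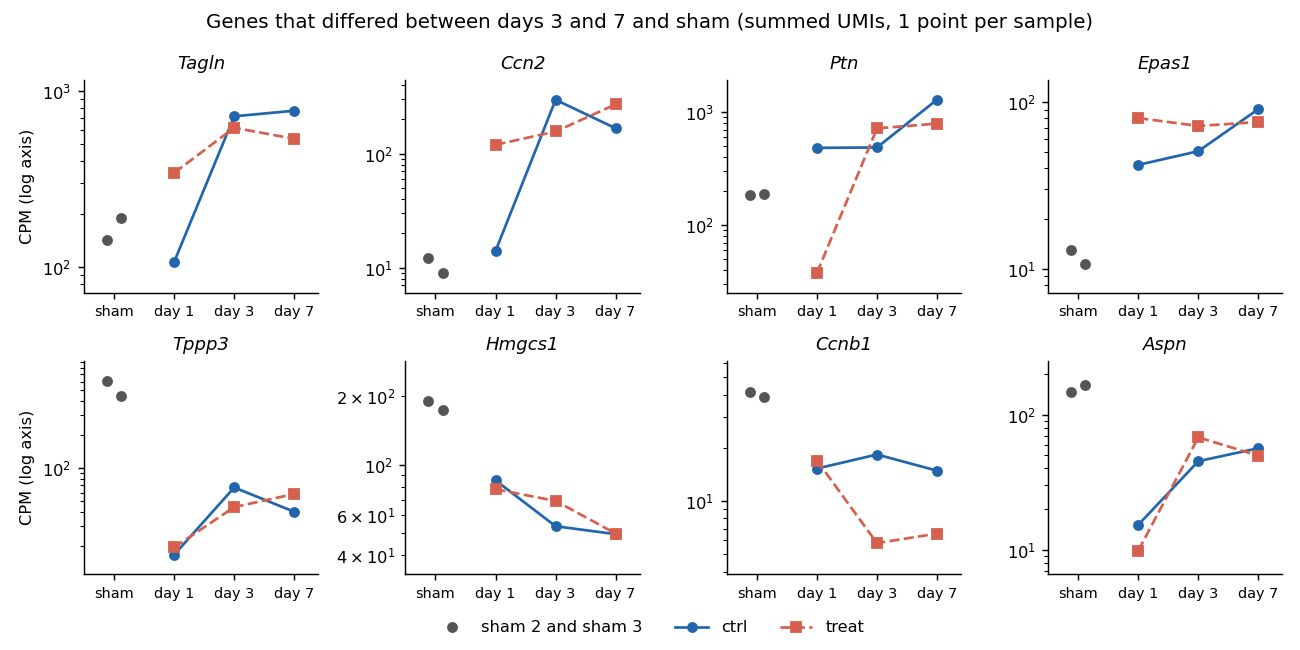
Each panel gives the level of 1 gene in the Mfap5 and Cthrc1 fibroblasts (TMM-scaled CPM, log axis), with 1 point per sample: sham 2 and sham 3 in grey, ctrl in blue and treat in red at days 1, 3 and 7. Tagln, Ccn2, Ptn and Epas1 were higher at days 3 and 7 than in sham, and Tppp3, Hmgcs1, Ccnb1 and Aspn were lower, with day 1 off this pattern for Tagln in ctrl and Ptn in treat.

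The secreted factors Ccn2 and Ptn were among the 12 genes named for the largest rises at days 3 and 7. The rule takes called genes with at least 50 CPM and no overlap of groups. Ccn2, the connective tissue growth factor and a target of TGF-beta and YAP, had 12.2 and 9.01 CPM in sham 2 and sham 3, 14.0, 298 and 167 CPM in ctrl at days 1, 3 and 7 and 119.9, 157 and 271 CPM in treat (log2 fold change 4.37, SE 0.39, edgeR adjusted p = 0.00281). Ctrl day 1 lay close to sham and the other 5 transplanted samples far above it. Ptn, the heparin-binding growth factor pleiotrophin, had 186 and 189 CPM in sham 2 and sham 3, 481, 486 and 1287 CPM in ctrl at days 1, 3 and 7 and 37.6, 716 and 790.1 CPM in treat (log2 fold change 2.11, SE 0.39, edgeR adjusted p = 0.0261), with treat day 1 below sham, and it lost the call without sham 2, sham 3, treat day 3 or treat day 7 (highest edgeR adjusted p = 0.236). Mfap4 had 9.73 and 11.98 CPM in sham 2 and sham 3, 19.1, 68.0 and 77.0 CPM in ctrl at days 1, 3 and 7 and 15.6, 98.3 and 64.6 CPM in treat (log2 fold change 2.82, SE 0.23, edgeR adjusted p = 8.51e-04), but the 12 cells of sham 1 had 99.9 CPM on 9 UMIs, as high as days 3 and 7. The syndecan Sdc1 (2.37), the scavenger receptor Olr1 (3.52) and Epas1 (2.60) were named by the rule too. Of 33 inflammatory genes, 5 rose, among them the chemokines Ccl7 (1.91), Cxcl16 (1.62) and Cxcl6 (3.99), and the cyclooxygenase Ptgs2 (-1.19) fell. Sham 1 differed from sham 2 and sham 3 for Ccl7, with 7862 CPM against 301 and 262 CPM, which is above all transplanted samples. Of 24 proteases and inhibitors, 5 rose and 1 fell, and the plasminogen activators Plau (1.82) and Plat (1.03) were among those that rose. Hif1a (1.33) and the vasodilator peptide Adm (1.46) were among 4 of 28 hypoxia genes that rose, Cfb (4.53) and C2 (3.99) among 5 of 21 complement genes, and Bst2 (1.63) and Psmb8 (1.54) among 7 of 27 interferon genes. In the same comparison, 5 of 12 monocyte and macrophage markers (median log2 fold change 1.64), 3 of 6 T and NK cell markers (4.05) and 3 of 7 neutrophil markers (4.84) were called higher and none lower, and their part in the complement, interferon and chemokine calls was not tested. S100a9 and Lcn2 are among the neutrophil markers called, and Lcn2 also belongs to the inflammatory list.

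Mitotic genes and some adventitial and elastic fibre genes were lower at days 3 and 7 than in sham. Of 28 cell cycle genes, 14 were lower and none higher (median -1.16). Ccnb1, cyclin B1, had 41.2 and 38.6 CPM in sham 2 and sham 3, 15.3, 18.3 and 14.9 CPM in ctrl at days 1, 3 and 7 and 17.0, 5.79 and 6.56 CPM in treat (log2 fold change -1.99, SE 0.16, edgeR adjusted p = 9.20e-04). Mki67 (-1.35), Top2a (-1.45), Nusap1 (-1.84) and Tpx2 (-1.56), all of dividing cells, fell with it, and the rule named Cdkn3 (-1.89), Ube2c (-1.69), Pttg1 (-1.67) and Cenpf (-1.67) of the same phase. Mki67, Top2a, Nusap1, Cdkn3 and Ube2c lost the call in some of the alternatives run, while Ccnb1, Tpx2, Pttg1 and Cenpf kept it in all. At treat day 1, outside this comparison, Ube2c had 210 CPM, above the 162 and 123 CPM of sham 2 and sham 3. In the 12 cells of sham 1, Cdkn3, Ccnb1 and Nusap1 had 0 UMIs, which allows up to 33.3 CPM each, or 41.0 CPM at the upper end of a Poisson interval. The latter is below the 177 and 138 CPM of Cdkn3 in sham 2 and sham 3 but above the 38.6 CPM of Ccnb1 in sham 3. Hmgcs1, an enzyme of cholesterol synthesis, had 189.5 and 174 CPM in sham 2 and sham 3, 85.3, 53.7 and 49.6 CPM in ctrl at days 1, 3 and 7 and 78.0, 69.3 and 49.9 CPM in treat (log2 fold change -1.72, SE 0.16, edgeR adjusted p = 0.00142) and 211 CPM on 19 UMIs in sham 1. All 6 transplanted samples lay below all 3 sham samples for Hmgcs1. Aspn, asporin, had 146 and 166 CPM in sham 2 and sham 3, 15.3, 45.2 and 56.4 CPM in ctrl at days 1, 3 and 7 and 9.85, 67.9 and 49.6 CPM in treat (log2 fold change -1.52, SE 0.17, edgeR adjusted p = 0.00239) and 122 CPM on 11 UMIs in sham 1, with the 6 transplanted samples below all 3. The elastic fibre genes Efemp1 (-1.24), Fbln5 (-0.95) and Ltbp4 (-0.76) fell and Emilin1 (0.83) and Mfap4 rose, out of 24. Of the adventitial list, Cd34 (-1.41) and Gsn (-1.32) were among 3 of 21 that fell, and Il33 (1.09) rose. Of the Wnt pathway, 4 of 24 rose, Rspo1 (1.85) among them, and of the growth factor list 4 of 30, Pdgfrb (1.12) and Igfbp3 (1.17) among them.

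The last comparison asks whether ligation of the splenic and gastroduodenal arteries changed the class, with treat against ctrl at the same 3 days and the day as a term. Of 10851 genes, edgeR called 1 higher in treat (0.00922%) and 0 lower (0%), with 664 at an unadjusted p under 0.05. DESeq2 called 15 higher and 15 lower. The called gene was Mcpt1l1, a mast cell protease, with 11.5, 0.414 and 65.2 CPM in treat and 0, 0 and 0.230 CPM in ctrl at days 1, 3 and 7. The 5 mast cell markers summed to 16.3, 6.29 and 47.6 CPM in the cells of treat and 0, 9.46 and 10.2 CPM in ctrl. Mcpt1l1 lost the call without treat day 7, with each library as a sample, without the day as a term, without the hemoglobin limit and without the cells holding genes of other types. No gene of the 18 fibroblast lists was called. Ccl2, an attractant of monocytes, had 7338, 4617 and 3302 CPM in treat and 2448, 1823 and 1856 CPM in ctrl, with every treat sample above every ctrl sample, but did not pass the test (log2 fold change 1.25, SE 0.19, edgeR adjusted p = 0.321). Ccl2 passed under 7 of the alternatives run and not under the other 9. It passed with DESeq2 (DESeq2 adjusted p = 0.00153), with no filter on low counts (edgeR adjusted p = 7.48e-04) and with any 1 sample but ctrl day 1 left out (edgeR adjusted p from 4.20e-05 to 0.0317), and without ctrl day 1 the edgeR adjusted p was 0.0508. Interferon genes had a median log2 fold change of 1.06, with 26 of 27 above 0, and hypoxia and glycolysis genes of -0.58, with 7 of 28 above 0, while the median over all genes was 0.03.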

How the data were processed

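Bile duct tissue was digested with collagenases, dispase and DNase I, and single cells were measured with the 10x Genomics 3' assay. The authors deposited UMI counts per gene for all barcodes, empty ones included, made with Cell Ranger (5.0.1 in the submitters' processing notes, 4 in the file headers), and the genome build is not given in the sources used here. The counts of 20 libraries were summed to 9 samples, and library 1 of treat day 3 was not analysed here. The members, gene lists and tests were chosen with earlier results of these data known.

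Member UMIs were summed per sample. Samples with under 20 members were left out of gene fits, which removed sham 1. Genes passed filterByExpr and were tested with edgeR 4.0.16 (R 4.3.3; TMM scaling, robust quasi-likelihood test, Benjamini-Hochberg adjusted p under 0.05), with residual degrees of freedom of 5 for transplanted against sham, 3 for days 3 and 7 against sham and 2 for the other comparisons. The fit was tested on simulated data with the same spread for all genes. Of simulated log2 changes of 1, it recovered 8.41% for transplanted against sham and 60.6% for days 3 and 7 against sham. For treat against ctrl and day 7 against day 1, it recovered 36.2% and 8.99%. Of changes of 2, it recovered 81.7% to 99.0%, so changes near 1 were often missed. Shares were compared by exact two-sided permutation over 84 splits. Empty barcodes had at most 100 UMIs. The share of ambient RNA was estimated from 12 genes. Named genes were the 12 with the largest fold change in each direction among called genes with at least 50 CPM in the higher group and no overlap of groups (for the day comparison, the same direction in both arms), and the called members of each list with up to 4 others of the highest CPM. Class descriptions name up to 15 genes a direction. Alternatives were RLE size factors, no filter on low counts, DESeq2 1.42.0, subtraction of the empty-barcode profile, other cell filters, libraries as samples and leaving out each sample. The comparison of days 3 and 7 with sham, and the shares without day 1, were added after the data were seen. No sequences or coordinates were used, and some genes that the rule names are not reported here.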

Additional observations from a re-analysis of the deposited data

Results flagged for a closer look

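At ctrl day 3, 175 cells that met every other part of the rule were among the barcodes removed for hemoglobin UMIs, so that 479 cells would belong to the class without that limit and 304 did with it. This count was flagged since the main comparisons do not use these barcodes.

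2 of 212 examined list genes were flagged for changes in opposite directions in the 2 arms, with limits of 100 CPM and a log2 ratio of 1. Both genes met the limit on the ratio from day 1 to day 7 in each arm. At day 3 of treat, Tnc was still close to its day 1 value. Smaller opposite changes were not counted, and the difference between the arms was not tested. Tnc, the matrix protein tenascin C, had 57.3, 151 and 160.0 CPM in ctrl at days 1, 3 and 7 and 49.7, 47.2 and 19.8 CPM in treat, with a log2 ratio of day 7 to day 1 of 1.46 in ctrl and -1.28 in treat. Ndrg1, a hypoxia-inducible gene, had 163, 45.9 and 40.8 CPM in ctrl and 23.8, 53.4 and 64.7 CPM in treat, with a log2 ratio of -1.97 in ctrl and 1.41 in treat. Each value comes from 1 sample, and ctrl day 1 holds 41 cells of the class.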

How the results depend on the processing

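No alternative turned the direction of a difference in the share of the class or brought its p under 0.05, but leaving out a sham sample, each arm alone and the samples without day 1 could not have given such a p. Leaving out only the cells of the class that hold genes of other types, and none of the other fibroblasts, lowers its share of all fibroblasts by construction, to 16.1% after LT and 10.6% in sham, and is no check of the difference. With all such fibroblasts left out, the shares were 52.3% and 26.9%. For transplanted against sham, 24 genes were called, against 118 with no filter on low counts, 367 with DESeq2, 0 after subtraction of the empty-barcode profile, 4 without cells holding genes of other types, 41 with each library as a sample, 221 with ctrl alone and 0 with treat alone. Leaving out 1 sample gave 0 (without sham 3) to 502 (without treat day 1) calls. For days 3 and 7 against sham, 930 genes were called, against 2116 with no filter on low counts and 379 with each library as a sample, and 157 (without sham 2) to 1195 (without ctrl day 3) with 1 sample left out. Of the 930, 522 were also called without cells holding genes of other types and 761 after subtraction of the empty-barcode profile. For day 7 against day 1, 1438 genes were called, against 3346 with each library as a sample and 348 (without treat day 7) to 3139 (without ctrl day 1) with 1 sample left out. Without ctrl day 7 and treat day 1, 391 and 472 were called. For treat against ctrl, the 1 call became 62 with no filter on low counts, 30 with DESeq2, 119 without cells holding genes of other types, 0 without the hemoglobin limit, 0 with each library as a sample, 0 without the day term and 38 to 92 with 1 sample left out. After subtraction of the empty-barcode profile, the log2 fold change of Ctrb1 was 6.90 for transplanted against sham and 7.06 for days 3 and 7 against sham, the opposite sign to the main values. Other named genes kept their direction in all alternatives run. The causes of these changes were not tested. Transplanted and sham samples could not be paired, because the replicate numbers of ctrl and treat stand for days and those of sham do not. Treat and ctrl were compared at the same days, with the day as a term. In the comparisons with sham the day was no term, so days served as the samples of an arm and their spread holds changes over time. Ctrl day 1 holds 806514 UMIs of the class and sham 1 90059, which limits low genes there.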

Other observations

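Beside Hmgcs1, the genes Sqle, Msmo1 and Insig1, known from cholesterol metabolism, were lower at days 3 and 7 than in sham. They were chosen after their values were seen, and no list of such genes was counted or tested. Sqle, the squalene epoxidase, had 56.8 and 46.4 CPM in sham 2 and sham 3, 40.8, 27.2 and 13.9 CPM in ctrl at days 1, 3 and 7 and 32.8, 18.4 and 13.3 CPM in treat (log2 fold change -1.54, SE 0.26, edgeR adjusted p = 0.0147). The sterol-C4-methyl oxidase Msmo1 had 84.5 and 80.0 CPM in sham 2 and sham 3, 64.9, 30.2 and 20.4 CPM in ctrl at days 1, 3 and 7 and 62.7, 36.4 and 30.2 CPM in treat (log2 fold change -1.52, SE 0.18, edgeR adjusted p = 0.00281). For Sqle and Msmo1, every transplanted sample lay below sham 2 and sham 3, and day 1 lay nearer to sham than days 3 and 7 did in both arms. Insig1, a regulator of sterol sensing, had 154 and 138 CPM in sham 2 and sham 3, 62.4, 39.6 and 47.2 CPM in ctrl at days 1, 3 and 7 and 75.7, 87.3 and 55.3 CPM in treat (log2 fold change -1.40, SE 0.19, edgeR adjusted p = 0.00510). Cyp51, named by the rule, had 146 and 113 CPM in sham 2 and sham 3, 70.0, 53.5 and 31.1 CPM in ctrl at days 1, 3 and 7 and 79.5, 48.4 and 31.2 CPM in treat (log2 fold change -1.68, SE 0.25, edgeR adjusted p = 0.0121) and 99.9 CPM in the 12 cells of sham 1.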
